A study of Homo sapiens with 7 samples.

Results

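Of the 66011 CTCF peaks deposited for K562 cells, 3560 had their centre in a gene desert, meaning more than 100 kb from the nearest protein-coding gene body on chromosomes 1 to 22 and X (GRCh37/hg19, gene rows of GENCODE). They comprised 1701 of the 32917 peaks of PDS-treated cells and 1859 of the 33094 peaks of control cells. The rule used the position of a peak and nothing that was measured at it. K562 is an established myelogenous leukaemia line with an erythroid character and an abnormal karyotype. Control cells were untreated, and the PDS group was incubated for 24 h with 10 μM pyridostatin (PDS), a small molecule that stabilizes DNA G-quadruplexes (G4s). No genetic change is given for either group, and both were grown in the same low-serum medium. CTCF was immunoprecipitated from 2 samples of each condition and compared with IgG samples, of which there were 2 for PDS and 1 for the control. The peak files used here hold 1 list per condition, called on both CTCF samples together, so they give no values per replicate. The sequencing depth is not known from them, and no difference between the lists could be tested against replicate error. Peak widths were multiples of 50 bp for PDS and of 60 bp for the control, with minima of 100 and 120 bp, so the lists were not called on the same window grid, and the part of this in differences of width, number and overlap between them was not tested. Shares are given with Wilson 95% confidence intervals (CI), which cover counting error only and treat peaks as independent.

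CTCF is a zinc finger protein that binds a long GC-rich DNA motif, and together with cohesin it stops loop extrusion and so sets the borders of many chromatin domains. Gene deserts are long stretches without coding genes. They are AT-rich as a rule, many are replicated late in S phase and attached to the nuclear lamina, and those beside developmental regulators often carry distant enhancers and CTCF-bound domain borders. G4s are 4-stranded structures that form in DNA with runs of guanines, which are scarce in AT-rich DNA.

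The following sequences of 100 bases show the motif at picked desert peaks that held one. Each comes from 1 of the peaks picked for a large fold enrichment over IgG, a large width or a small p-value, and is read from the GRCh37 reference, 5′ to 3′, on the strand that carries the motif. Picked peaks without a motif are not printed, and of the 5 desert peaks with the largest fold in each list only 2 (PDS) and 1 (control) held the consensus. Capitals mark a match to the CTCF consensus of 15 letters derived by ChIP-exo. The genes named are the coding genes on either side of the desert.
Distal to FAM240C, chr2:243153796-243153895, minus strand: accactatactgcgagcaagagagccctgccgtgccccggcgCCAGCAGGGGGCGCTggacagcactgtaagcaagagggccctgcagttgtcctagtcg
SMOC2 to THBS2, chr6:169295252-169295351, plus strand: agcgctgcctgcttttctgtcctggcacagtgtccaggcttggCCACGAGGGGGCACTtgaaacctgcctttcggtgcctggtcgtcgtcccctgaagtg
PARP8 to ISL1, chr5:50258899-50258998, plus strand: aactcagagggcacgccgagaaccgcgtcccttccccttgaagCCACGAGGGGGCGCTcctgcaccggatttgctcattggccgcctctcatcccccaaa
CNTN3 to FRG2C, chr3:75471373-75471472, minus strand: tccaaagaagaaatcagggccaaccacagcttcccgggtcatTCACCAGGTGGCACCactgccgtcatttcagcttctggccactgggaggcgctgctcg
OXGR1 to MBNL2, chr13:97762291-97762390, plus strand: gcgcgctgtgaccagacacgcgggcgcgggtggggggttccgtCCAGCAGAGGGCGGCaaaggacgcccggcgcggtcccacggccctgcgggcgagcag
VPREB1 to ZNF280B, consensus, chr22:22711766-22711865, plus strand: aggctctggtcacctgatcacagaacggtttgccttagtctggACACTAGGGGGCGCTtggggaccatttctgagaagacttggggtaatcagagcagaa
Capitals in the next set mark a G4 motif, here 4 runs of 3 or more G that are separated by 1 to 7 bases.
TSHZ3 to ZNF507, chr19:32715692-32715791, minus strand: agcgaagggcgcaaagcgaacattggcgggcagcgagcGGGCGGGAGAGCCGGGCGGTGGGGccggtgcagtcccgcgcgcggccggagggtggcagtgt
GGTLC2 to IGLL5, chr22:23110612-23110711, minus strand: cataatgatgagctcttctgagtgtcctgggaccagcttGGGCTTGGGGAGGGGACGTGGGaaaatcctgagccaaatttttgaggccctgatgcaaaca
VPREB1 to ZNF280B, G4 motif, chr22:22711659-22711758, plus strand: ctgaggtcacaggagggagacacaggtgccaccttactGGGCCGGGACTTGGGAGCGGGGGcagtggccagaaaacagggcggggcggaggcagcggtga

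The first of these sites lay 309 kb beyond FAM240C, near the end of the long arm of chromosome 2. Its control peak had a fold of 162, which ranked 19 among all control peaks, and the overlapping PDS peak had a fold of 35.4 (rank 1518). The site between SMOC2, which encodes a matrix protein, and THBS2, which encodes a thrombospondin, had a fold of 63.2 (rank 76) after PDS and 71.1 (rank 1112) without it. Between PARP8 and ISL1, the gene of a LIM homeodomain factor, the folds were 52.2 (rank 231) and 51.1 (rank 3618). Of the 6 consensus sites printed, the one between CNTN3 and FRG2C was called in the PDS list only, with a fold of 29.2, in a peak of 150 bp inside the annotated non-coding gene FAM86DP. The peak pair between OXGR1 and MBNL2, the latter a splicing regulator, ranked 592 by p-value among PDS peaks and 299 among control peaks. Between VPREB1, which encodes a part of the pre-B cell receptor, and ZNF280B a shared peak of 850 bp (PDS) and 1020 bp (control) held the consensus and a G4 motif, and it ranked 128 and 416. Of these 6 sites, all but the FAM86DP site were thus bound in both lists. In the PDS peak between PARP8 and ISL1 and the control peak between VPREB1 and ZNF280B the consensus lay 101 and 106 bp from the centre, outside the central 200 bp in which motifs are counted here. The folds of the lists come from separate calls with different IgG samples, and near-equal folds can have unequal ranks. Where the folds of a site are compared between the lists, their ranks within a list are therefore given.

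CTCF peaks were sparse in the deserts in both lists. Deserts took up 27.0% of the sequenced bases (765 of 2836 Mb) and held 5.17% (95% CI 4.94 to 5.42) of the PDS peaks and 5.62% (5.38 to 5.88) of the control peaks on these chromosomes. This corresponds to 2.22 and 2.43 peaks per Mb, against 17.5 and 16.8 in intergenic DNA up to 100 kb from a coding gene and 13.6 and 14.0 inside coding gene bodies. The intergenic density was therefore 7.87 (PDS) and 6.93 (control) times the desert density. The density fell further with distance. It was 32.3 and 30.5 peaks per Mb up to 10 kb from a coding gene and 12.05 and 11.8 from 10 to 100 kb. Within the deserts it was 4.27 and 4.55 from 100 to 200 kb, 1.78 and 1.99 from 200 to 500 kb, and 0.851 and 0.972 beyond 500 kb. The median desert peak lay 179 kb (PDS) or 182 kb (control) from a coding gene, and 50 and 57 peaks lay more than 1 Mb away. The chosen border cut through a continuous fall. The PDS peaks nearest to it had distances of 100078 bp inside and 99883 bp outside, with folds of 7.52 and 18.8, and the control peaks 100129 and 99861 bp, with folds of 14.7 and 8.19.

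**Figure D1:**
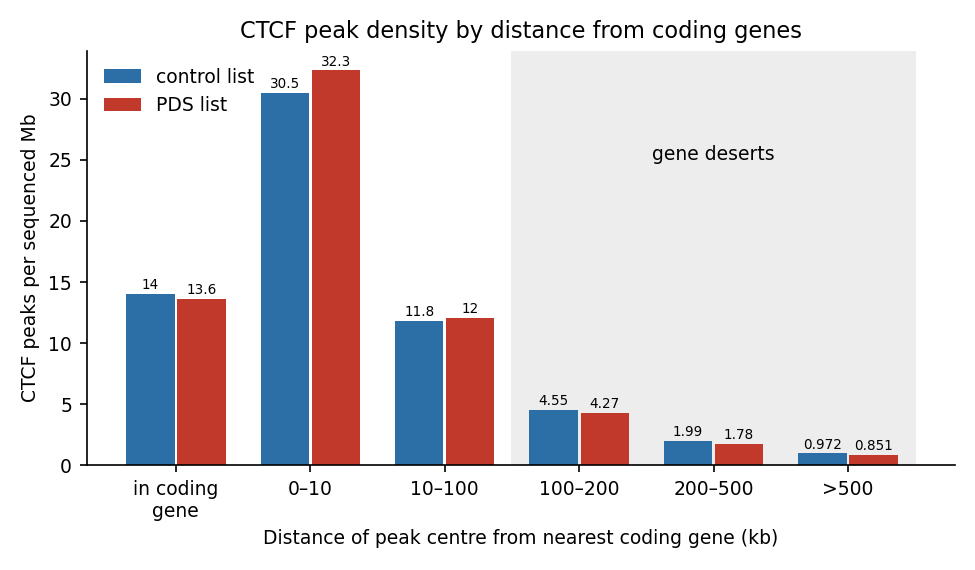
CTCF peaks per Mb of sequenced DNA by distance of the peak centre from the nearest protein-coding gene body, for the PDS list and the control list. Each bar is 1 list in 1 distance class, and the 3 shaded classes are the desert peaks, which go down to 0.851 (PDS) and 0.972 (control) per Mb beyond 500 kb.

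All 23 chromosomes had a lower density in their deserts than in the rest, in both lists. The lowest value, 0.848 per Mb in each list, was on chromosome 13, and the median over chromosomes was 2.48 (PDS) and 2.58 (control). Chromosome 22 stood apart with 11.6 and 10.7 per Mb. Most of its desert peaks, 37 of 52 for PDS and 30 of 48 for control, lay within 10 kb of an immunoglobulin or T cell receptor gene segment. Such segments are joined during lymphocyte development and are annotated separately from coding genes, so the rule counts their clusters as deserts. Over all chromosomes 86 PDS and 78 control desert peaks were of this kind, mainly on chromosomes 22, 14 (33 and 33) and 7 (13 and 10). Chromosome 22 next to BCR is also part of the amplified fusion for which K562 is known. Copy number was not measured here, and its part in these counts was not tested.

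**Figure D2:**
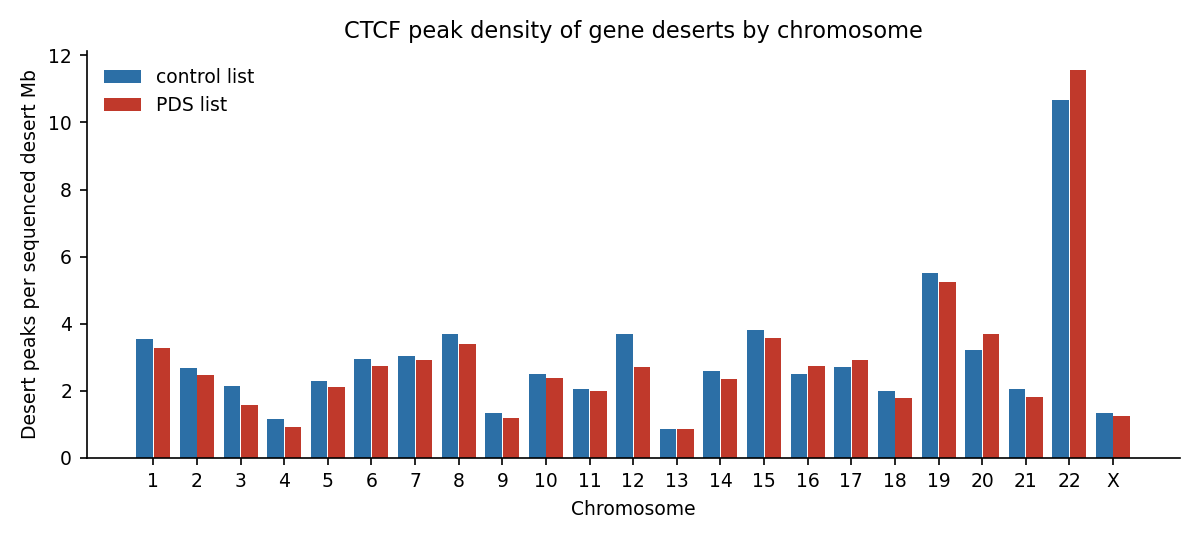
Desert CTCF peaks per Mb of desert on each of chromosomes 1 to 22 and X, for the PDS and control lists. Chromosome 22 lies at 11.6 (PDS) and 10.7 (control) peaks per Mb and chromosome 13 at 0.848 in both.

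The peaks were spread unevenly over the 1602 single deserts, of which 786 held a peak in at least 1 list and 816 held none. In 620 deserts both lists had a peak, in 125 only the control list and in 41 only the PDS list. The share with a peak rose with length, from 19.7% of deserts under 50 kb to 74.2% of those of 1 Mb or more. Even so, 60 of the 233 deserts of 1 Mb or more had no peak in either list. The longest desert, 4.58 Mb on chromosome 4 between PCDH7, a protocadherin gene, and ARAP2, had 2 peaks in each list. The desert between AGA, which encodes a lysosomal hydrolase, and TENM3, a teneurin gene, had 2 PDS peaks and 1 control peak in 4.50 Mb. CELF4 and PIK3C3 were separated by 4.19 Mb with 1 peak in each list. No peak was called in either list between OLFM4 and PRR20A (3.89 Mb), PABPC4L and PCDH18 (3.12 Mb) or TENM4 and FAM181B (3.09 Mb). These held 181, 113 and 163 G4 motifs, or 46.5, 36.3 and 52.8 per Mb, against 75.0 per Mb over all deserts. The cadherin genes CDH9 and CDH6 flanked a desert of 3.87 Mb with 2 PDS and 7 control peaks.

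At the other end were the 5 deserts with the highest peak counts outside chromosome 8. The immunoglobulin heavy chain region distal to TMEM121 had 27 PDS and 23 control peaks in 1.19 Mb, of which 21 in each list overlapped a peak of the other list. The desert between TMEM132B and TMEM132C had 16 and 18, and that between ZNF254 and UQCRFS1, which spans the unsequenced centromere of chromosome 19, had 15 and 14. The stretch of only 0.0396 Mb between GGTLC2 and IGLL5, in the immunoglobulin lambda region, had 16 and 12. Between PTPRU, which encodes a receptor phosphatase, and the next coding gene (ENSG00000289710) there were 13 and 13 in 1.05 Mb. PLXNA2, a semaphorin receptor gene, and CAMK1G flanked 14 and 11 peaks in 1.14 Mb. In each of the 5 deserts with most peaks outside chromosome 8 the lists differed by at most 4 peaks, and 2 of the 5 were immunoglobulin regions.

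Deserts were grouped by 3 lists of genes beside them. The lists were drawn from genes thought to flank deserts, so the share of each list that does so is not a result. Of the 2722 coding genes that flank a desert, 53.5% had at least 1 peak of either list there, and the deserts beside them held 4.62 peaks per Mb with both lists added and each desert counted once for each of its flanks. Among 55 developmental regulators at deserts, 43 (78.2%) had a peak, at 4.84 per Mb, and their deserts were longer (median 0.663 Mb, against 0.251 Mb for all flanking genes). NR2F2, a nuclear receptor of vessel and organ development, had 8 PDS and 13 control peaks. FOXA2, a pioneer factor of endoderm, had 10 and 8. IRX2, an Iroquois homeobox gene, had 7 and 9. Longer deserts were sparser in general, with 14.7 (PDS) and 13.7 (control) peaks per Mb in those under 50 kb and 1.20 and 1.40 in those of 1 Mb or more, so densities of lists with unequal desert lengths are not comparable either.

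Deserts beside 51 neuronal adhesion and synapse genes had 1.37 peaks per Mb with both lists added and a median length of 2.49 Mb, and 36 of the genes (70.6%) had a peak. NCAM2, an adhesion molecule gene of neurons, had 7 PDS and 11 control peaks in 6.15 Mb. CTNNA3, an alpha-catenin gene, had 8 and 8. CNTNAP5 had 8 and 7, and SLITRK5 had 4 and 8. The 13 blood and erythroid genes at deserts had 6.52 peaks per Mb, and 11 of them (84.6%) had a peak, with a median desert length of 0.446 Mb. BCL11A, the repressor of fetal globin, which is also in the developmental list, had 8 and 9. MEF2C had 5 and 4, SOX6, another repressor of fetal globin and also in both lists, had 4 and 5, and the chemokine receptor gene CXCR4 had 3 and 2. The share with a peak rises with desert length, and the density falls with it, so neither is comparable between these lists and all flanking genes. These are counts over small lists, and no test of a list was made.

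Annotated non-coding genes were common at desert peaks. The centre lay in the body of a long non-coding RNA (lncRNA) gene for 655 PDS peaks (38.5%, 95% CI 36.2 to 40.8, against 15.8% of all PDS peaks) and 734 control peaks (39.5%, 37.3 to 41.7, against 15.9%). LncRNA bodies also took up more of the desert sequence, 32.4% of its bases against 19.0% of all sequenced bases. A lncRNA start was within 1 kb of 80 PDS and 74 control desert peaks, which is 4.70% and 3.98%, against 5.62% and 5.61% of all peaks. The share in lncRNA bodies was thus somewhat above that of the bases, and the share near lncRNA starts was not above that of all peaks. Outside chromosome 8, the bodies with most peaks were those of ENSG00000228566 on chromosome 10 (8 PDS and 8 control), PITX1-AS1 beside the hindlimb factor gene PITX1 (7 and 7), ENSG00000287277 (6 and 7), LINC02694 (6 and 7) and MIR3681HG (6 and 6). Only 103 PDS and 119 control peaks were more than 100 kb from any annotated gene of any kind.

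Desert peaks were narrower than the others and weaker by p-value, but not by fold in the PDS list. PDS and control desert peaks had median widths of 250 and 240 bp, against 300 and 360 bp over all peaks. By p-value the median desert peak stood at percentile 41.2 for PDS and 37.0 for control, where 100 is the strongest. By fold over IgG it stood at percentile 52.4 and 45.1, with a median fold of 17.1 and 25.1 against 16.7 and 26.5 over all peaks. The percentile by p-value fell with distance in both lists, to 36.8 and 30.4 beyond 500 kb. Among the stronger 50% of each list by p-value, deserts had 665 PDS and 630 control peaks. Among the weaker 50% they had 1036 and 1229. PDS peaks were thus the more numerous among the stronger desert peaks and the less numerous among the weaker ones. Desert peaks were narrower at the same time, and the order by p-value differed between widths. Among peaks of up to 200 bp the median percentile was 23.1 in deserts and 21.2 elsewhere for PDS, and 15.8 and 14.7 for control. Among peaks over 400 bp it was 69.9 and 79.0, and 65.1 and 75.4. The narrowest desert peaks were thus not weaker than other peaks of their width, and the widest were.

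The CTCF consensus was more frequent at the centre of desert peaks than of other peaks. In the 200 bp at the peak centre, on either strand, it was found in 263 of 1701 PDS peaks (15.5%, 95% CI 13.8 to 17.3, against 9.76% of all PDS peaks) and in 361 of 1859 control peaks (19.4%, 17.7 to 21.3, against 13.5%). Windows of the same size 1 kb to either side of desert peaks held it in 0.265% and 0.350% of cases. The share was 13.3% and 17.0% from 100 to 200 kb, 18.5% and 22.6% from 200 to 500 kb, and 17.7% and 21.98% farther out. A looser motif of 11 letters (CA, any 2 bases, AG, any 2 bases, GGC, on either strand), which every consensus match contains, was found in 28.0% and 31.8% of desert peaks, against 20.2% and 26.0% of all peaks and 2.29% and 2.64% of the side windows. Over the whole peak, whose width is smaller in deserts, the difference was less, with the consensus in 16.2% (PDS) and 20.5% (control) of desert peaks and 14.3% and 17.1% of the others. By distance, the share over the whole peak was 14.5% and 19.4% from 100 to 200 kb, which is not above the 16.5% and 19.9% found from 10 to 100 kb. The order turned for another form of the motif. The GC-rich core (CCGCG, any base, GG, any base, GGCAG), searched on both strands with up to 2 mismatches, was found in 7.35% and 8.12% of desert peaks but in 8.82% and 10.3% of all other peaks. The higher share in deserts was therefore seen for the consensus and its looser form in the central 200 bp, was smaller for the consensus over the whole peak and was not seen for the GC-rich core.

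Width, strength and base composition of the surroundings were compared in strata, since desert peaks differ in all of them. In PDS peaks of up to 200 bp the consensus share was 14.6% in deserts and 5.33% elsewhere, and in control peaks 18.5% and 7.42%. In peaks over 400 bp the difference was small, with 14.4% and 12.2% for PDS and 15.4% and 15.2% for control. In the weaker 50% by p-value the shares were 13.8% and 5.78% (PDS) and 19.4% and 9.79% (control). In the stronger 50% they were 18.0% and 13.0%, and 19.4% and 16.3%. Where the surroundings had under 38% GC, they were 17.6% and 10.2%, and 20.2% and 14.7%. The desert share was the higher in every stratum of the 3 measures, and the gap was widest among narrow and weak peaks.

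**Figure D3:**
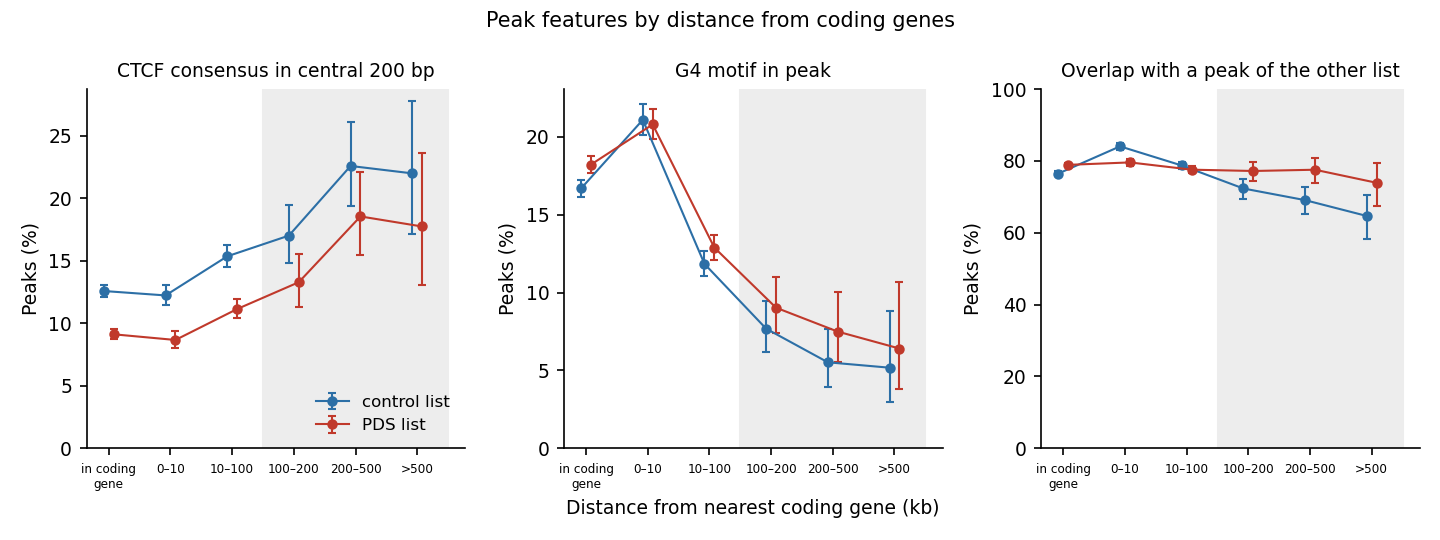
Share of peaks (%) with the CTCF consensus in the central 200 bp, with a G4 motif in the peak and overlapping a peak of the other list, by distance from the nearest coding gene, for the PDS and control lists. Bars on the points are Wilson 95% intervals. In the 3 shaded classes, which are the deserts, the consensus share lies between 13.3% and 22.6%, and the share of control peaks that overlap a PDS peak falls from 72.3% to 64.7%.

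Seen from the motif, most consensus sites in deserts were not in a peak. The deserts held 4340 sites, or 5.67 per Mb, against 9.32 per Mb in the rest. Of these, 449 (10.3%, 95% CI 9.47 to 11.3) were in a peak of either list, against 29.5% (28.9 to 30.2) of the 19292 sites elsewhere. Both lists had 297 of the 449, the control list alone 125 and the PDS list alone 27. Desert sites were thus fewer per Mb than those elsewhere, and a smaller share of them was bound.

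The consensus sites called in both lists differed from the control-only sites at a CpG. Letters 12 and 13 of the consensus can form a CpG. The effect of methylation on CTCF binding is known to depend on which CpG of the motif carries it. In deserts it was present at 39.7% (95% CI 34.3 to 45.4) of sites in both lists, 40.7% (24.5 to 59.3) of the 27 PDS-only sites, 20.8% (14.6 to 28.7) of control-only sites and 15.0% (13.9 to 16.2) of sites without a peak. Elsewhere these shares were 42.3%, 33.9%, 19.9% and 18.7%. Desert sites with this CpG were in a peak in 20.9% (18.2 to 24.0) of cases and those without it in 8.17% (7.32 to 9.11). In and outside deserts, sites in both lists and PDS-only sites thus had the CpG more often than control-only sites and sites without a peak, although the interval of the few PDS-only desert sites was wide. Methylation was not measured in these samples.

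The words that spell the consensus at bound desert sites were varied. The 418 bound sites examined used 274 different words, of which these 5 were among the most frequent. They are shown because identical letters had a lower bound share in deserts than outside in these counts. The site numbers of a single word are small, and no interval was calculated for single words.
Word bound at 10 of 17 desert sites and 47 of 52 others: CCACTAGATGGCAGT
Word bound at 9 of 32 desert sites and 29 of 32 others: CCACCAGGGGGCGCT
Word bound at 6 of 13 desert sites and 18 of 30 others: CCACAAGATGGCAGT
Word bound at 6 of 26 desert sites and 24 of 32 others: CCACCAGGGGGCACT
Word bound at 6 of 16 desert sites and 74 of 92 others: CCAGCAGAGGGCAGC
The bound shares of these 5 words, picked after their values were seen, were 23.1% to 58.8% in deserts and 60.0% to 90.6% elsewhere. Over the 32 words with at least 10 sites in each region, a choice that does not use binding, the bound share was lower in deserts for 25, equal for 7 and higher for 0. Reads that align to several places had been removed from these data, and whether a site lies in repeated DNA was not tested.

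G4 motifs were scarce at desert peaks, as in the deserts themselves. A motif was in 140 PDS peaks (8.23%, 95% CI 7.02 to 9.63, against 17.1% of all PDS peaks) and in 124 control peaks (6.67%, 5.62 to 7.90, against 16.0%). For 71.1% and 74.3% of desert peaks none lay within 1 kb, against 53.2% and 56.2% of all. The density of motifs was 75.0 per Mb in deserts and 156 per Mb elsewhere, and a peak of either list covered 194 of the 57382 desert motifs (0.338%, 0.294 to 0.389) against 2.78% elsewhere. GC content at the centre was 51.0% (PDS) and 48.5% (control) in desert peaks, against 53.5% and 52.0% in all, and in the surroundings from 500 to 2000 bp it was 42.6% and 41.5% against 47.3% and 46.2%. Within surroundings of 46% GC or more the G4 share was 16.0% in desert peaks of each list, and 24.1% and 24.9% elsewhere. Where GC was under 38% it was 4.56% and 2.71% in deserts and 3.89% and 2.79% elsewhere.

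Few of the picked desert peaks held a G4 motif. Among those with the largest fold it was in 0 of 5 for PDS and 1 of 5 for control, and among the widest in 1 of 3 and 0 of 3. The control peak 121 kb from ZNF507 and 875 kb from TSHZ3, a teashirt zinc finger gene, held the G4 motif printed above, with a fold of 105 (rank 203) without PDS and 23.3 (rank 7348) after it. By p-value the order of the lists was the other way, at 1.34e-44 for the PDS peak and 1.85e-15 for the control peak. The widest desert peak outside chromosome 8, 3400 bp in the PDS list, lay between GGTLC2 and IGLL5 with 1 motif. The control peak there was 2100 bp wide and held none. Next to it in width were PDS peaks of 3250 and 3100 bp between TOP3B and VPREB1, where the control peaks measured 2400 and 2220 bp. The widest picked desert peaks of both lists were therefore at the same 3 places on chromosome 22.

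Counted over all peaks, overlap with the other list was lower in control desert peaks than in other control peaks. Within the classes of GC content given below, this held only at 46% GC or more. A peak of the other list overlapped by at least 1 bp at 1308 of 1701 PDS desert peaks (76.9%, 95% CI 74.8 to 78.8, against 78.6% of all PDS peaks) and at 1307 of 1859 control desert peaks (70.3%, 68.2 to 72.3, against 78.0% of all control peaks). Peaks of 1 list only were 393 for PDS (23.1%, against 21.4% of all) and 552 for control (29.7%, against 21.98%). The shared part of the control list fell with distance from 72.3% at 100 to 200 kb to 69.1% and then 64.7% beyond 500 kb (58.3 to 70.5). In the PDS list the values were 77.2%, 77.5% and 73.9% (67.4 to 79.5). The control share was lower in deserts than in the rest on 22 of 23 chromosomes, and the PDS share on 16. Of the desert peaks in the stronger 50% of their list by p-value, 99.2% (PDS) and 93.3% (control) overlapped a peak of the whole other list, against 99.5% and 95.02% elsewhere. With the other list also cut to its stronger 50%, the values were 72.6% and 76.5%, against 84.0% and 83.2%. For the PDS list, whose desert share was close to that of all peaks, the order depended on the definition, since with centres at most 100 bp apart 61.5% of desert peaks and 59.8% of the others were shared.

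The unshared desert peaks of the lists were unlike each other in composition, and so were the unshared peaks of the whole lists. Control-only peaks had a median GC content of 41.0% at the centre, and 17.2% (95% CI 14.3 to 20.6) held the consensus, against 51.0% GC and 20.4% (18.3 to 22.6) for shared control peaks. PDS-only peaks had a median GC content of 50.0%, and 8.14% (5.83 to 11.3) held the consensus. Over all peaks, control-only ones had 41.5% GC and 10.3% with the consensus, and PDS-only ones 51.5% and 2.38%. The window of 200 bp reaches beyond narrow peaks, and inside the peak itself the consensus was in 3.82% (2.33 to 6.20) of PDS-only and 15.2% (12.5 to 18.5) of control-only desert peaks, against 19.95% and 22.8% of the shared ones. A G4 motif was in 1.45% of the control-only desert peaks (8.88% of the shared ones) and in 2.54% of the PDS-only ones (9.94%). Unshared peaks were narrower, with medians of 100 bp (PDS) and 180 bp (control) against 300 bp for shared ones. In a fixed window of 200 bp the G4 share was 1.63% (0.860 to 3.07) in control-only peaks and 5.97% (4.81 to 7.39) in shared control peaks, and 3.82% (2.33 to 6.20) and 5.66% (4.53 to 7.04) for PDS, where the intervals overlap. For 22.4% of PDS-only and 20.2% of shared PDS desert peaks the only motifs were outside the peak within 1 kb. In the fixed window the G4 share of control-only desert peaks was thus below that of shared ones, and for PDS a difference was not detectable at this number of desert peaks. Over all peaks the fixed-window share was lower in unshared peaks of both lists, with 5.56% against 10.7% (control) and 7.004% against 10.85% (PDS). Of the PDS-only peaks, 216 had no other peak within 1 kb and held the consensus in 13.4% (9.51 to 18.6), while 140 had another PDS peak within 1 kb and held it in 2.14% (0.731 to 6.11). Over all PDS-only peaks of these kinds the shares were 5.83% and 0.387%, and inside the peak itself the desert values were 5.56% and 2.14%. Few unshared desert peaks were among the stronger 50% of their list, 1.27% for PDS and 7.61% for control, against 1.10% and 11.5% of all unshared peaks. The narrowest width that occurs in each list made up 57.0% and 40.0% of them, against 60.3% and 39.9% of all unshared peaks.

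**Figure D4:**
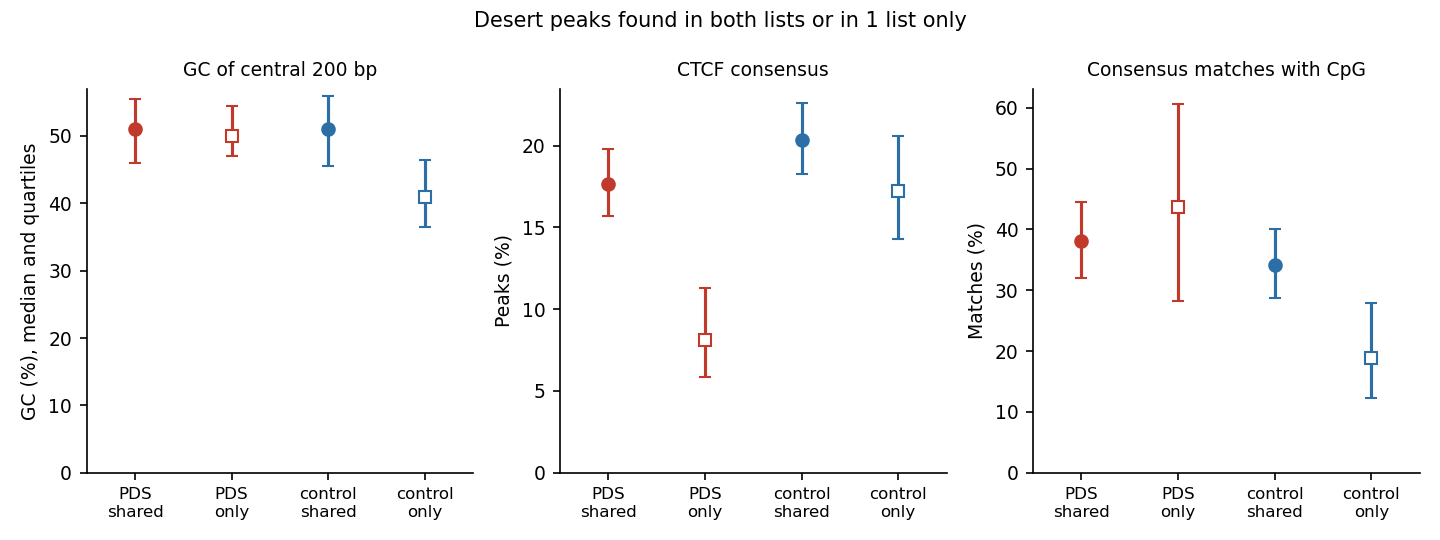
Desert peaks that overlap the other list (shared) and desert peaks found in 1 list only, for PDS and control. The panels show the GC content of the central 200 bp (%, median and quartiles), the share of peaks with the consensus and the share of consensus matches with the CpG at letters 12 and 13 (both in %, Wilson 95% intervals). Control-only peaks combine a low GC content (41.0%) with a consensus share of 17.2%, and PDS-only peaks have 50.0% GC and 8.14%.

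The unshared desert peaks with the largest folds outside chromosome 8 had no consensus apart from the one printed above, and all 6 were in the weaker 50% by p-value. In the control list these were a peak of 120 bp between CDH18 and CDH12 in GUSBP1 (fold 123.9, rank 85), a peak of 120 bp between LAT and NPIPB11 (fold 80.1) and a peak of 240 bp between GPR12 and USP12 (fold 55.7), which ranked 30097, 28992 and 16667 by p-value. In the PDS list they were the FAM86DP peak, a peak between CCDC74A and ANKRD30BL (fold 27.9) and a peak between KCNJ12 and MTRNR2L1 (fold 27.3), which ranked 29049, 21642 and 32812. GUSBP1 and FAM86DP are annotated non-coding relatives of other genes, and whether reads there match other copies was not tested. The largest fold of the PDS desert peaks outside chromosome 8, 82.7 (rank 16), was in LINC00680, 774 kb from PRIM2. The control fold there was 106.8 (rank 189), and no consensus was found. Also without the consensus were the PDS peaks between LPCAT1 and MRPL36 (fold 70.4, rank 47) and between CCNH and TMEM161B (58.3, rank 111). The same was true of the control peak between RNF144A and ID2 (fold 108, rank 175). The peak farthest from any coding gene, 1865 kb from AGA, was 100 bp wide and in the PDS list only. The farthest control peak, 1690 kb from CDH9 and 240 bp wide, was in the control list only. A pair 1689 kb from CDH9, beside that peak, and a pair 1633 kb from CTNNA2 were in both lists.

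Deserts had fewer PDS than control peaks when all peaks were counted, but not in the stronger 50% of each list by p-value, where there were 1.06 PDS peaks per control peak. Over all peaks of a region, the number of PDS peaks per control peak was 0.915 in deserts, 1.04 in intergenic DNA closer to genes, 0.972 in gene bodies and 0.995 over all peaks. It was 0.937, 0.893 and 0.875 in the 3 distance classes of deserts, in order. PDS peaks were fewer on 18 of 23 chromosomes, more on 4 and equal on 1, and the desert ratio was below that of the rest on 15. By GC content of the surroundings, the desert ratio was 0.640 under 38%, 0.887 from 38 to 42%, 1.04 from 42 to 46% and 1.14 at 46% or more. Peaks outside deserts in the same classes had 0.618, 0.858, 0.996 and 1.12. At a given GC content the ratio in deserts was thus slightly above that elsewhere, while over all peaks it was lower. GC content moved with the ratio both in and outside deserts, and its part in the lower number of PDS peaks was not tested.

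The overlap rose with GC content for control peaks only. In surroundings under 38% GC, 50.8% of control desert peaks and 47.4% of the other control peaks had a PDS peak. The shares were 69.6% and 66.3% from 38 to 42% GC and 79.9% and 79.6% from 42 to 46%. At 46% GC or more they were 83.5% and 87.7%. For PDS desert peaks the share fell, from 79.2% under 38% to 74.4% at 46% or more, and for other PDS peaks it was 78.9% and 77.8%. For control peaks the classes of GC content thus differed far more among themselves than deserts differed from the rest within a class.

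**Figure D5:**
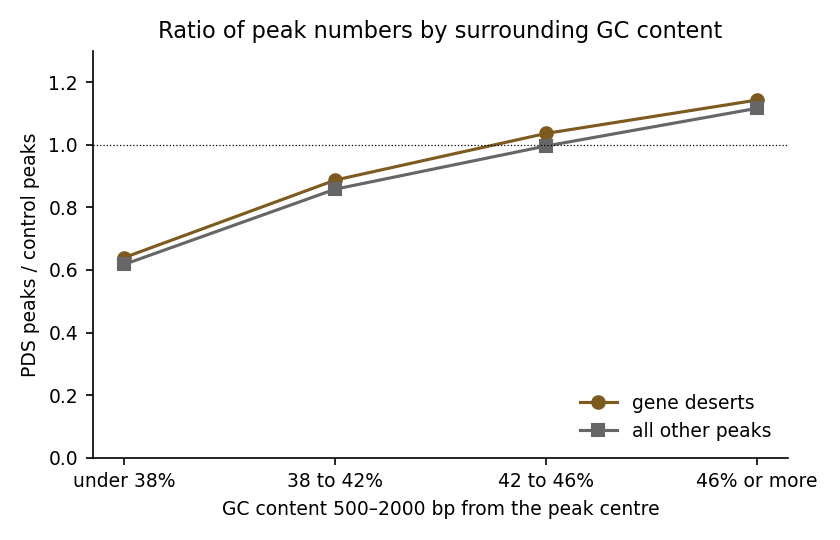
Number of PDS peaks per control peak by GC content of the surroundings (500 to 2000 bp from the centre), for desert peaks and all other peaks. The desert values go from 0.640 under 38% GC to 1.14 at 46% or more, and the other peaks go from 0.618 to 1.12.

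Where a desert peak had exactly 1 partner in the other list, the pair was compared by its ranks, taken as percentiles among the paired peaks of each list. For these 1281 pairs the PDS peak stood higher by fold than the control peak by a median of 4.96 percentile points (quartiles -13.6 and 24.4), against 0.39 over all 24616 pairs. By p-value the median shift was 0.26 points, against 1.13. Median widths were 300 bp in each list, and the centres were 35 bp apart. The shift by fold was not seen by p-value. The quartiles give the spread of single pairs, and the error of the median was not estimated. Across these pairs the folds of the lists had a Spearman correlation of 0.39, against 0.42 in the other pairs, a description over loci of the same 2 lists.

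Desert peaks were also far from each other. The nearest peak of the same list was at a median of 32.3 kb (PDS) and 43.3 kb (control), against 7.08 and 11.4 kb for other peaks, and it was over 100 kb away for 27.9% and 29.1% of desert peaks, against 5.51% and 5.13%. CTCF motifs that point towards each other (convergent) are the usual arrangement at the ends of loops. Pairs were neighbouring desert peaks up to 1 Mb apart that each held the looser motif of 11 letters, not necessarily the full consensus. Convergent were 20.8% of 101 PDS pairs (95% CI 14.0 to 29.7) and 19.4% of 124 control pairs (13.4 to 27.2). Outside deserts the shares were 25.7% and 25.5%, within these intervals. In tandem were 55.4% (45.7 to 64.8) and 57.3% (48.5 to 65.6), against 48.4% and 48.6%. At this number of pairs a difference in orientation was not detectable for convergent pairs.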

How the data were processed

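CTCF ChIP-seq peaks of K562 cells were taken as deposited, 1 list per condition. The authors aligned the reads to hg19 with Bowtie2 2.2.3, removed duplicates, poorly aligned reads and reads without a unique place with SAMtools, and called the peaks with PePr on both CTCF samples of a condition against IgG. Widths step by 50 bp in the PDS list and 60 bp in the control list, so the settings were not the same for both. The paper gives a single window size and a single p-value cutoff for all calls. The upper quartile of the PePr p-values was 8.85e-07 (PDS) and 5.42e-07 (control), far below that cutoff, so the settings behind each list are uncertain. Each peak carries the p-value that the authors obtained from PePr, and it was used here to rank peaks within a list. The fold enrichment over IgG, also as deposited from PePr, was used to rank and to pick peaks. The deposited score was written by the authors' peak caller and was not used, nor was an adjusted p-value. The peak lists give no read counts, so depth and replicate spread are not known from them and no test was made. The paper shows Pearson correlations between the data sets of its biological repeats, which were not used here.

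Of the peaks, 24 (PDS) and 25 (control) lay off chromosomes 1 to 22 and X and were left out of the shares. Distances were measured from peak centres to the gene rows of protein-coding genes in GENCODE 44 lifted to GRCh37, whose chromosome names match hg19. Deserts are the maximal stretches more than 100 kb from all of these genes, and unsequenced bases were not counted. Motifs were searched on both strands. The surroundings are the bases from 500 to 2000 bp on either side of a centre. Percentiles were taken within a list over all its peaks, and for peak pairs over the paired peaks. Python 3.11.15, pandas 2.3.3, numpy 2.4.6 and pyfaidx 0.9.0.4 were used, and overlaps, distances and motif searches were tested on simulated data.

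The members, gene lists and measures were chosen with earlier results of these data known. Named, outside chromosome 8, are in each list the 5 desert peaks with the largest fold, the 3 farthest from a coding gene, the 3 of 1 list only with the largest fold and the 3 widest, then the 2 shared pairs with the smallest p-values, the deserts that are longest (5), have most peaks (5), are longest without a peak (3) or densest (3), the 5 lncRNA genes with most peaks, and up to 4 genes per gene list. The most frequent words (chromosome 8 left out) of the consensus and the antigen receptor segments were chosen after their values were seen. Alternatives covered the desert distance, the gene set, assembly gaps, stringency, overlap and motif.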

Additional observations from a re-analysis of the deposited data

How the results depend on the processing

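Of 82 alternative values for the 8 main shares, 30 moved by less than the 95% interval of counting error and 52 moved more. The order of desert and other peaks turned for the GC-rich core (7.35% and 8.12%, against 8.82% and 10.3% elsewhere) and, for the shared part of the PDS list, with centres within 100 bp (61.5% against 59.8%). Values are given as PDS and control. With deserts more than 50 kb from a coding gene, 10.2% and 10.7% of peaks were members, the consensus was in 13.5% and 17.3%, a G4 motif in 10.1% and 8.77%, and 73.5% of control peaks were shared. More than 200 kb away the members were 2.24% and 2.51%, the consensus 18.3% and 22.4%, and for control the G4 share 5.42% and the shared part 67.8%. More than 500 kb away these were 0.617% and 0.702% (members), 17.7% and 21.98% (consensus), 6.404% and 5.17% (G4) and 73.9% and 64.7% (shared). More than 100 kb from any annotated gene they were 0.313% and 0.360%, 12.6% and 16.8%, 6.80% and 3.36%, and 74.8% and 63.9%, over 103 and 119 peaks. In the stronger 50% of each list by p-value, 4.04% and 3.81% were members, 15.3% and 10.8% held a G4 motif, 18.0% of PDS peaks held the consensus, and 72.6% and 76.5% overlapped a peak of the other list's same part, against 84.0% and 83.2% outside deserts. The order of the lists thus turned for members, although the intervals of the lists overlapped before and after the cut. For the shared part it turned only with the other list also cut, while against the whole other list the shares were 99.2% and 93.3%. Overlap of 50% of both peaks gave 64.1% and 58.6% shared, centres within 100 bp 61.5% and 56.3%, and a gap of up to 1 kb 86.9% and 74.4%. The G4 share was 5.23% and 4.68% in the central 200 bp, 17.0% and 14.8% in 1000 bp, and 15.3% and 12.5% with loops up to 12 nt. The looser motif gave 28.0% and 31.8%. A wider desert takes in peaks nearer to genes and a looser motif takes in more sequences by construction. The cause of the other moves was not tested.

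The desert share of the G4 motif stayed below that of the other peaks with both windows and with longer loops. Without peaks within 10 kb of antigen receptor segments, an alternative chosen after seeing the data, and without peaks near assembly gaps, all 8 shares moved by less than counting error. No paired analysis was possible because the replicates of a condition were merged into 1 peak list, which also leaves no replicate to omit. Unknown depth, the different window grids of the lists and the unequal number of IgG samples limit the comparison of peak numbers between the lists.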
